A study of Mus musculus with 8 samples.

Results

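The genes described are 10 core members of the Notch pathway, namely the receptors *Notch1*, *Notch2* and *Notch3*, the ligands *Jag1*, *Jag2* and *Dll1*, and the transcriptional targets *Hes1*, *Hey1*, *Hey2* and *Heyl*. They were chosen by symbol among the 50600 genes of the count table, and all 10 were found. RNA-seq had been performed on NF1-MET, a line isolated from a malignant peripheral nerve sheath tumor (MPNST) of a mouse that carried the *Nf1* fl/ko alleles, a lox-stop-loxMET transgene (tg/+) and Plp-creERT (tg/+), an inducible Cre under the *Plp* promoter that acts in Schwann lineage cells, and on its derivative NF1-MET;sgP53. Each line received vehicle (DMSO) or 100 nM capmatinib, an inhibitor of the MET receptor tyrosine kinase, for 24 h, with 2 libraries in each of the 4 groups and 8 libraries in all.

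Both lines share the *Nf1* alleles, the MET transgene, the Cre transgene, *Met* amplification and a deletion of *Cdkn2a*. NF1-MET carries wild-type *Trp53*. NF1-MET;sgP53 was made by lentiviral delivery of Cas9 and a guide to *Trp53*, followed by puromycin selection. The study also made an empty-vector control, and the sources used here do not say whether the NF1-MET libraries came from it, although their count columns are named SEVV and SEVC, names the sources do not spell out. As 1 line stood for each genotype, loss of p53 and any other difference between the lines cannot be told apart.

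Notch receptors are bound by Delta-like and Jagged ligands on neighbouring cells, after which ADAM proteases and gamma-secretase cut the receptor and free its intracellular domain. That domain joins the DNA-binding protein RBPJ and a Mastermind coactivator in the nucleus, where genes of HES and HEY repressors are among the best known targets. In Schwann cells and their precursors, Notch signalling is known for roles in lineage progression and dedifferentiation, and NOTCH3 is best known from mural cells of blood vessels. RNA levels measure neither the cleavage of the receptors nor their activity.

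To show the sequence context of the receptor that rose most, the ligand that fell most and the receptor whose response differed between the lines, 250 bases upstream of RefSeq start sites (GRCm38.p6) are given for *Notch3*, *Dll1* and *Notch2*. These are the windows chr17:32166891-32167140 (minus strand), chr17:15376933-15377182 (minus strand) and chr3:98013288-98013537 (plus strand), written 5′ to 3′. Capitals mark matches on either strand to the RBPJ core TGGGAA, the HES-type E-box CACGNG or the N-box CACNAG.
Notch3: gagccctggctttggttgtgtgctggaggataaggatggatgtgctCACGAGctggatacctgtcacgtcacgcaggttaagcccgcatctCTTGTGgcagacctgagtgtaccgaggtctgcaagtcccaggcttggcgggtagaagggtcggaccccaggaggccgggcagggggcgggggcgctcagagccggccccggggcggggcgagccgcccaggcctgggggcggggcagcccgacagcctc
Dll1: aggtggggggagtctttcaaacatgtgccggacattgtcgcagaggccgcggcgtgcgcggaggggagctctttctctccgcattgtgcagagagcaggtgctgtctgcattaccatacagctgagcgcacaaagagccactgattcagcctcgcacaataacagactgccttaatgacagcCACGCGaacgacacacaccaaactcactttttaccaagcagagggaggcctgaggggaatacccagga
Notch2: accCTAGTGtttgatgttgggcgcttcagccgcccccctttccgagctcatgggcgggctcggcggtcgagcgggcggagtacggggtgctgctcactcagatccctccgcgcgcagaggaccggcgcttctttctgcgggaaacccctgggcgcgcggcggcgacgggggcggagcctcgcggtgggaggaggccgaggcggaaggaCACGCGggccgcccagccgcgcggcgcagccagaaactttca
The *Notch3* window held an E-box and an N-box match at the same letters, at position -204 from the start site, and a further N-box match closer to it. The *Dll1* window held 1 E-box match at -68, and a second RefSeq start of *Dll1* had 1 at -105. The *Notch2* window held an E-box match at -42 and an N-box match at -247. Of 32851 promoter windows of this length, 23.5% held the E-box, 36.7% the N-box and 21.6% the RBPJ core, so such matches are common. Promoter windows were matched for 7 of the 10 genes. No window was matched for the targets *Hes1*, *Hey1* and *Heyl*, so these were not searched. Among the 7 genes searched, the RBPJ core was found in *Hey2* (at -207) and in no other window. A p53 half-site, held by 7.13% of all windows, was found in none of them.

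Libraries held 30116810 to 42781371 counts, and 1 count was worth 0.0234 to 0.0361 CPM (counts scaled to a common library size after TMM scaling, which adjusts for a few abundant RNAs). TMM factors ran from 0.898 to 1.1, and the abundant RNA *Gm42418* took 1.11% to 13.1% of counts. *Trp53* was lower in both vehicle libraries of NF1-MET;sgP53 (97.5 and 100 CPM) than in those of NF1-MET (182 and 193 CPM), with a log2 fold change of -0.94 (SE 0.0327) and an adjusted p of 2.48e-14 by the quasi-likelihood test of edgeR, with p-values adjusted after Benjamini and Hochberg over all genes, as throughout. A guide cut need not remove the transcript, so this checks the labels only. *Trp53* also fell with capmatinib, on the log2 scale by 0.58 in NF1-MET, and by 0.53 where *Trp53* was targeted. Of 12 Schwann cell and neural crest markers, 8 passed the count filter, with summed levels of 574 to 608 CPM carried by *Nes*, while the Schwann markers *Sox10* and *Ngfr* stayed under 10 counts in every library. Behind this flat sum, markers of the list moved apart with capmatinib: in NF1-MET *Egr2* went from 16.1 to 73.9 CPM, *Sox9* from 65 to 16.2 CPM and *Gap43* from 18.4 to 2.84 CPM, with the same directions in NF1-MET;sgP53, and their part in the Notch results was not tested. Endothelial markers summed to 0.13 to 0.358 CPM (0 of 6 past the filter, *Emcn* and *Tie1* at 0), macrophage markers to 1.77 to 2.12 CPM (2 of 6, *Adgre1* and *Tyrobp* at 0) and epithelial markers to 0.0276 to 0.777 CPM (1 of 6, *Cldn4* at 0). With capmatinib in NF1-MET, *Csf1r* went from 0.209 to 0.808 CPM and *Cd68* from 1.73 to 0.913 CPM, with the same directions in NF1-MET;sgP53. Epithelial sums fell from 0.634 and 0.777 CPM to 0.145 and 0.13 CPM in NF1-MET. In NF1-MET;sgP53 they fell from 0.495 and 0.375 CPM to 0.284 and 0.0276 CPM.

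To understand how MET inhibition altered the Notch genes, capmatinib was first compared with vehicle within each line. A gene was tested where 2 or more libraries held 10 or more counts, which 7 of the 10 genes did. With capmatinib, *Notch2*, *Notch3*, *Jag1*, *Hes1* and *Hey1* rose and *Notch1* and *Dll1* fell, in both lines. All 7 tested genes were called in NF1-MET, where 70.2% of all tested genes were called (35.5% higher and 34.7% lower), and all 7 in NF1-MET;sgP53, where 67.6% were called (34.2% higher and 33.4% lower). With a background this high, the count of calls says little about these genes, and the sizes of the changes are given instead. The 7 genes had a median log2 fold change of 0.53 (NF1-MET) and 0.59 (NF1-MET;sgP53), against 0 for all tested genes in either line. With library totals in place of TMM the median of all genes lay at -0.18 and -0.12 in these comparisons, and in NF1-MET *Jag1* (0.34), *Hes1* (0.33) and *Hey1* (0.37) were then over 1.5 times smaller than the values given for them, and still called.

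**Figure D1:**
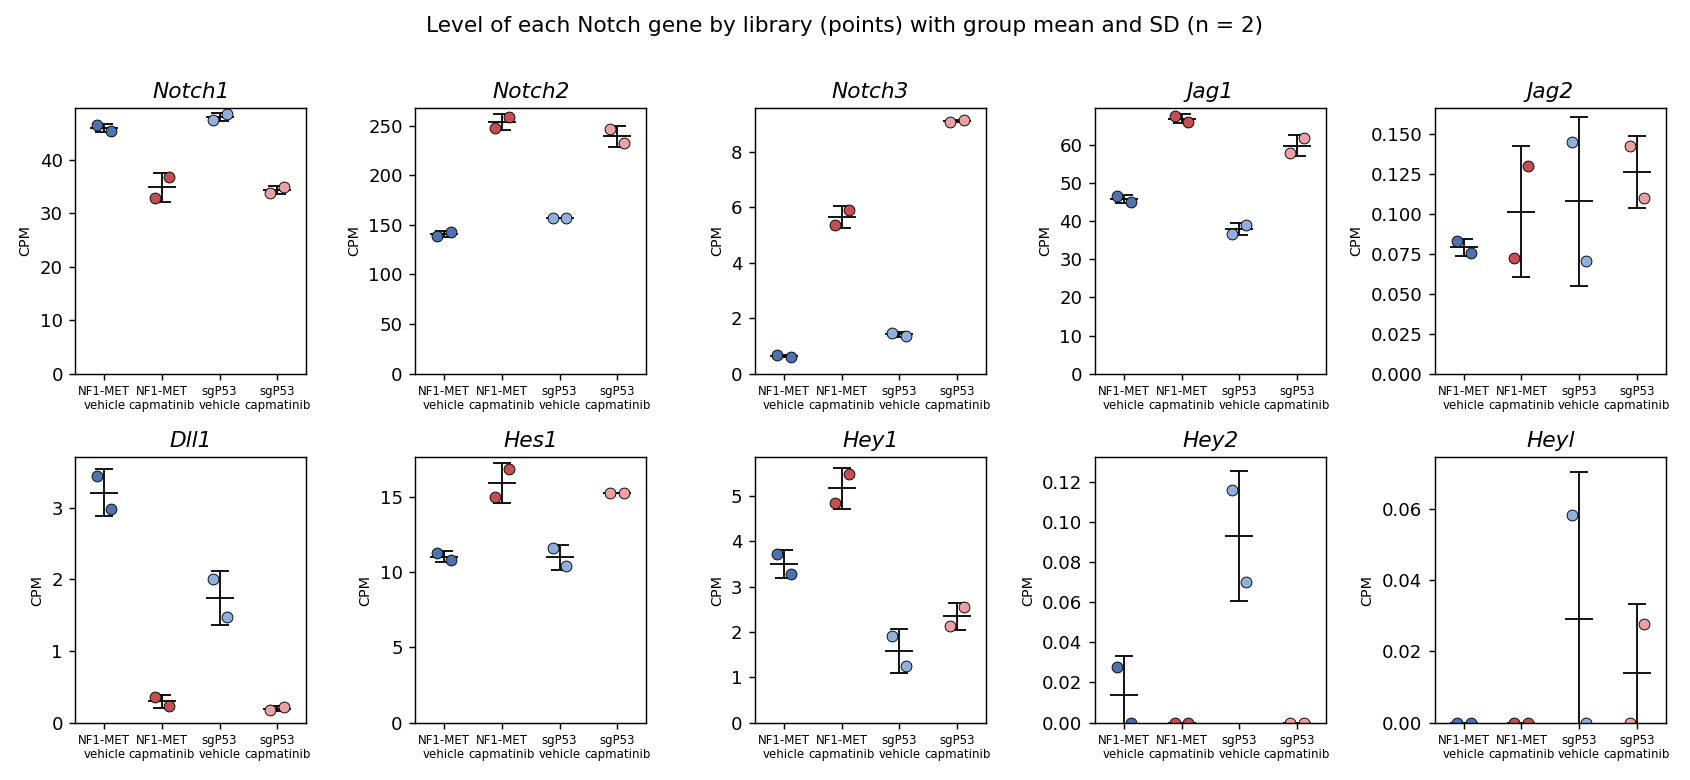
Level in CPM (counts scaled to a common library size, vertical axes from 0, separate scale per gene) of the 10 Notch genes in each of the 8 libraries (points), with group means and SD (bars, n = 2). The mean of *Notch3* rose from 0.631 to 5.63 CPM in the NF1-MET line and from 1.42 to 9.1 CPM in NF1-MET;sgP53, *Dll1* fell in both, and *Jag2*, *Hey2* and *Heyl* stayed near 0.

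Among the receptors, *Notch3* (ENSMUSG00000038146, chromosome 17, 32120820 to 32166852, minus strand, mm10) changed most. It was at 0.661 and 0.602 CPM (24 counts in each library) in NF1-MET vehicle and at 5.35 and 5.91 CPM (148 and 227 counts) in NF1-MET capmatinib. The NF1-MET;sgP53 libraries held 1.48 and 1.36 CPM in vehicle and 9.08 and 9.12 CPM in capmatinib. The 4 groups did not overlap, in the order NF1-MET vehicle, NF1-MET;sgP53 vehicle, NF1-MET capmatinib and NF1-MET;sgP53 capmatinib, and the highest mean was 14.4 times the lowest. Capmatinib raised *Notch3* 8.83-fold in NF1-MET (log2 3.14, SE 0.196, edgeR adjusted p = 1.65e-15) and 6.42-fold in NF1-MET;sgP53 (log2 2.68, SE 0.133, edgeR adjusted p = 5.03e-14).

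The mural and smooth muscle list (*Acta2*, *Tagln*, *Myh11*, *Cnn1*, *Rgs5*, *Pdgfrb*), which marks a cell type known for NOTCH3, moved in the same order. Its summed level was 623 and 638 CPM in NF1-MET vehicle, 1260 CPM in both NF1-MET;sgP53 vehicle libraries, 8950 and 8870 CPM in NF1-MET capmatinib, and 9720 and 9800 CPM in NF1-MET;sgP53 capmatinib. Of its 6 genes, 5 passed the filter, none was at 0 in every library, *Rgs5* had at most 10 counts and *Acta2* made up most of the sum. In RNA from whole cultures, a change in the share of cells of a type and a change in RNA per cell cannot be told apart, and the part of these markers in the *Notch3* result was not tested.

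*Notch2* (ENSMUSG00000027878, chromosome 3, 98013527 to 98150361, plus strand) was the most abundant receptor. It was at 139 and 143 CPM in NF1-MET vehicle and at 248 and 259 CPM in NF1-MET capmatinib. In NF1-MET;sgP53 both vehicle libraries were at 157 CPM, and the capmatinib libraries were at 247 and 232 CPM. Capmatinib thus raised it 1.78-fold in NF1-MET (log2 0.83, SE 0.0272, edgeR adjusted p = 6.18e-23) and 1.52-fold in NF1-MET;sgP53 (log2 0.61, SE 0.0337, edgeR adjusted p = 3.64e-13). The 4 groups did not overlap, NF1-MET vehicle being lowest and NF1-MET capmatinib highest.

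*Notch1* (ENSMUSG00000026923, chromosome 2, 26457903 to 26516663, minus strand) moved the other way. NF1-MET had 46.5 and 45.5 CPM with vehicle and 32.9 and 36.8 CPM with capmatinib. NF1-MET;sgP53 had 47.5 and 48.6 CPM with vehicle and 33.9 and 34.9 CPM with capmatinib. Every capmatinib library was below every vehicle library, and the capmatinib groups of the 2 lines overlapped. It fell by 0.41 (SE 0.0491, edgeR adjusted p = 7.62e-09) in NF1-MET and by 0.48 (SE 0.0437, edgeR adjusted p = 1.82e-09) in NF1-MET;sgP53 on the log2 scale.

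Levels of different receptors were compared per kb of exon. In NF1-MET vehicle, *Notch2* was at 13.1 CPM per kb, *Notch1* at 3.23 and *Notch3* at 0.0781, and *Notch4*, a receptor best known from endothelium and not one of the 10 genes, was at 0.594. Of the summed level of *Notch1*, *Notch2* and *Notch3*, *Notch2* made up 79.4% to 80.5% in vehicle and 85.7% to 88.6% in capmatinib libraries, while *Notch1* went from 18.5% to 20.1% down to 8.88% to 9.78%. *Notch3* stayed the smallest part, with 0.451% and 0.502% in NF1-MET vehicle and 4.26% and 4.5% in NF1-MET;sgP53 capmatinib. The summed level of the 3 receptors was 16.3 to 18.1 CPM per kb in vehicle and 25.1 to 27.3 CPM per kb in capmatinib libraries.

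**Figure D2:**
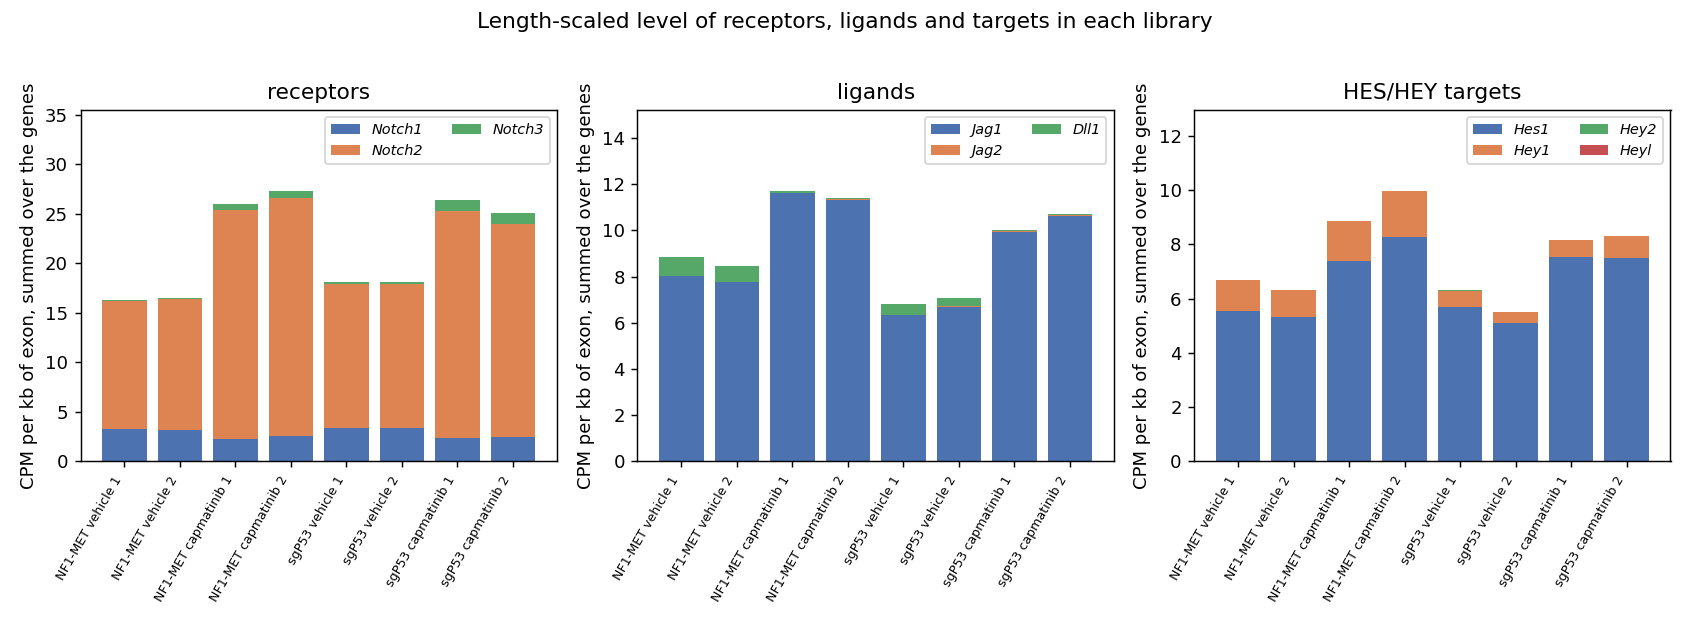
Length-scaled level (CPM per kb of exon, stacked over the genes of a role) in each of the 8 libraries, for receptors, ligands and HES/HEY targets. *Notch2* forms most of the receptor bar, *Jag1* most of the ligand bar and *Hes1* most of the target bar in every library, and *Dll1* shrinks with capmatinib.

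Among the ligands, *Dll1* (ENSMUSG00000014773, chromosome 17, 15367354 to 15376872, minus strand), a Delta-like ligand, fell most. It had 125 and 119 counts (3.44 and 2.98 CPM) in NF1-MET vehicle and 10 and 9 counts (0.361 and 0.234 CPM) in NF1-MET capmatinib. In NF1-MET;sgP53 it had 69 and 63 counts (2.01 and 1.47 CPM) in vehicle and 6 and 8 counts (0.17 and 0.22 CPM) in capmatinib. Capmatinib lowered it 11.1-fold in NF1-MET (log2 -3.48, 95% interval -4.05 to -2.91, edgeR adjusted p = 9.84e-13) and 8.69-fold in NF1-MET;sgP53 (log2 -3.12, 95% interval -3.91 to -2.33, edgeR adjusted p = 1.9e-07). The groups did not overlap, although the low counts under capmatinib leave wide intervals. *Dll1* had 10 or more counts in 5 libraries, 4 of them vehicle, and so passed the filter through the groups where it was high.

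*Jag1* (ENSMUSG00000027276, chromosome 2, 137081456 to 137116644, minus strand), a Jagged ligand, rose in both lines. NF1-MET had 46.7 and 45.2 CPM with vehicle and 67.8 and 66.2 CPM with capmatinib. NF1-MET;sgP53 had 36.8 and 39 CPM with vehicle and 58 and 61.8 CPM with capmatinib. The 4 groups did not overlap. The log2 fold change was 0.53 (SE 0.0391, edgeR adjusted p = 1.41e-13) in NF1-MET and 0.66 (SE 0.0438, edgeR adjusted p = 8.9e-12) in NF1-MET;sgP53. *Jag1* supplied 90.6% to 94.9% of the length-scaled level of the 3 ligands in vehicle and 99.2% to 99.4% in capmatinib libraries, as *Dll1* went from between 4.95% and 9.23% to between 0.403% and 0.73%. The second Jagged ligand, *Jag2* (ENSMUSG00000002799), had 2 to 5 counts in every library (0.0702 to 0.145 CPM), did not pass the filter, and its groups overlapped throughout, so that a difference was not detectable at this depth.

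Among the targets, *Hes1* (ENSMUSG00000022528, chromosome 16, 30064384 to 30067796, plus strand), a HES repressor, was at 11.3 and 10.8 CPM in NF1-MET vehicle and at 15 and 16.9 CPM in NF1-MET capmatinib. The NF1-MET;sgP53 libraries were at 11.6 and 10.4 CPM in vehicle and at 15.3 CPM in both capmatinib libraries. The vehicle groups of the lines overlapped, as did their capmatinib groups, and each capmatinib library was above each vehicle library. The log2 fold change was 0.52 (SE 0.0783, edgeR adjusted p = 6.02e-07) in NF1-MET and 0.48 (SE 0.0796, edgeR adjusted p = 1.52e-05) in NF1-MET;sgP53.

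*Hey1* (ENSMUSG00000040289, chromosome 3, 8663359 to 8667256, minus strand), a HEY repressor, was at 3.72 and 3.28 CPM in NF1-MET vehicle and at 4.84 and 5.49 CPM in NF1-MET capmatinib. The level in NF1-MET;sgP53 was 1.92 and 1.24 CPM (66 and 53 counts) in vehicle and 2.13 and 2.56 CPM (75 and 93 counts) in capmatinib. All groups were apart, those of NF1-MET;sgP53 by the least. *Hey1* rose with a log2 fold change of 0.56 (SE 0.134, edgeR adjusted p = 0.000456) in NF1-MET. In NF1-MET;sgP53 it rose by 0.59 (SE 0.225, edgeR adjusted p = 0.0238), but this call was lost without the second vehicle library (log2 0.29) and without the second capmatinib library (log2 0.44). It was also lost with library totals in place of TMM (log2 0.47, edgeR adjusted p = 0.0628) and with DESeq2's Wald test (log2 0.57, adjusted p = 0.13). Without the first vehicle library the log2 fold change was 0.92.

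The other HEY genes were close to absent. *Hey2* (ENSMUSG00000019789) had 1 and 0 counts in NF1-MET vehicle, 4 and 3 counts in NF1-MET;sgP53 vehicle and 0 counts in the 4 capmatinib libraries. *Heyl* (ENSMUSG00000032744) had 2 counts in 1 NF1-MET;sgP53 vehicle library, 1 count in 1 NF1-MET;sgP53 capmatinib library and 0 elsewhere. A count of 0 allows up to 3 counts, that is 0.0702 to 0.108 CPM in these libraries, for counting error alone, so no fold change is given for either. *Hes1* made up 82.9% to 84.1% of the length-scaled level of the 4 targets in NF1-MET libraries and 90.1% to 92.8% in NF1-MET;sgP53 libraries, and *Hey1* made up 15.9% to 17% and 6.9% to 9.47%.

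To assess how the line altered these genes, the lines were set against each other in vehicle and again in capmatinib, as NF1-MET;sgP53 minus NF1-MET. These comparisons use the same libraries as the capmatinib responses, so they are not independent of them. In vehicle, *Notch2* and *Notch3* were higher and *Jag1*, *Dll1* and *Hey1* lower in NF1-MET;sgP53. That is 5 of 7 tested genes, where 23.2% of all tested genes were called (10.9% higher and 12.3% lower). In capmatinib, *Notch3* was higher and *Jag1* and *Hey1* lower, which is 3 of 7 where 12.3% were called (5.94% higher and 6.34% lower). The median over the 7 genes was -0.03 in vehicle and -0.08 in capmatinib, with 0 for all tested genes.

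*Hey1* was lower in NF1-MET;sgP53, with a log2 fold change of -1.19 (SE 0.197, edgeR adjusted p = 0.000127) in vehicle and -1.15 (SE 0.152, edgeR adjusted p = 3.97e-05) in capmatinib, about 2.28-fold and 2.21-fold lower. *Notch3* was 2.21-fold higher in vehicle (log2 1.14, SE 0.281, edgeR adjusted p = 0.00508), from 24 and 24 counts against 51 and 58. In capmatinib it was 1.61-fold higher (log2 0.68, SE 0.1, edgeR adjusted p = 0.00012). *Jag1* was lower by 0.29 in vehicle on the log2 scale (log2 -0.29, SE 0.0447, edgeR adjusted p = 4.66e-05). Its lower level in capmatinib (log2 -0.16, SE 0.0385, edgeR adjusted p = 0.00945) was not called with library totals (log2 -0.04), with DESeq2's Wald test (adjusted p = 0.104) or without the first NF1-MET;sgP53 capmatinib library (log2 -0.11).

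*Dll1* was 1.89-fold lower in NF1-MET;sgP53 vehicle (log2 -0.92, SE 0.189, edgeR adjusted p = 0.00113). Under capmatinib its log2 difference was -0.55 with a 95% interval of -1.71 to 0.61 (edgeR adjusted p = 0.601), which at 6 to 10 counts per library was not a detectable difference. It was -0.87 without the second and -0.25 without the first NF1-MET capmatinib library. *Notch2* was 1.1-fold higher in vehicle (log2 0.13, SE 0.0286, edgeR adjusted p = 0.0015), and in capmatinib its log2 difference of -0.08 (95% interval -0.15 to -0.01, edgeR adjusted p = 0.114) was not called. It was called without the first NF1-MET;sgP53 capmatinib library (-0.13, edgeR adjusted p = 0.000355) and without the filter (-0.09, edgeR adjusted p = 0.0373), was -0.04 without the second NF1-MET;sgP53 capmatinib library, and turned to 0.03 with library totals. *Notch1* and *Hes1* were not called in either condition. For *Notch1* the 95% interval of the log2 difference was -0.04 to 0.13 in vehicle and -0.14 to 0.09 in capmatinib. For *Hes1* it was -0.2 to 0.14 in vehicle and -0.22 to 0.08 in capmatinib.

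**Figure D3:**
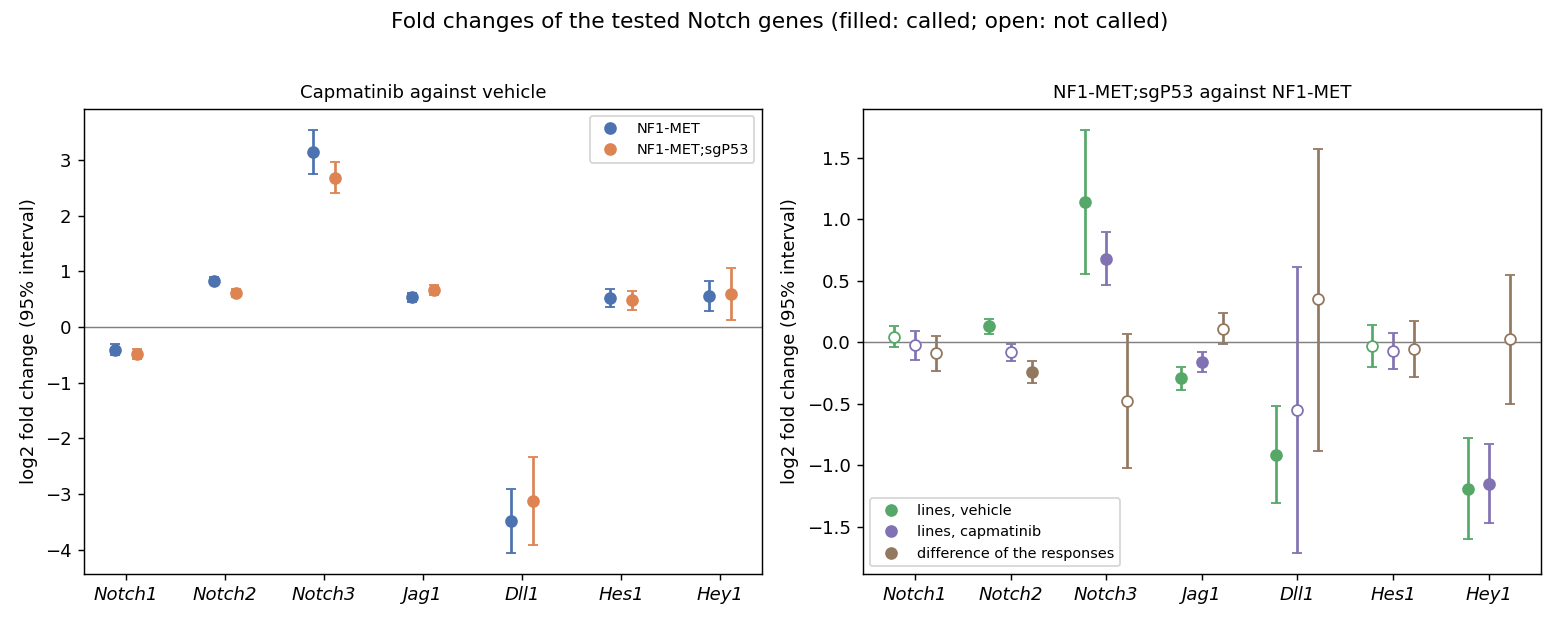
Log2 fold change (vertical axes, bars are 95% intervals, filled points called at an adjusted p under 0.05) of the 7 tested Notch genes for capmatinib against vehicle in each line (left) and for NF1-MET;sgP53 against NF1-MET in vehicle, in capmatinib and as the difference of the responses (right). *Notch3* is highest and *Dll1* lowest at left, and at right the difference of the responses is filled for *Notch2* alone, at -0.24.

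To test whether the lines responded differently, the interaction of line and treatment was fitted over the 8 libraries. *Notch2* was the gene called, 1 of 7 where 9.71% of all tested genes were called (3.85% higher and 5.86% lower). Its response was smaller in NF1-MET;sgP53 (157 ± 0.0986 to 239 ± 10.5 CPM, SD, n = 2) than in NF1-MET (141 ± 2.35 to 253 ± 7.37 CPM, SD, n = 2), and the difference of the log2 responses was -0.24 (SE 0.0448, edgeR adjusted p = 0.000723). With library totals in place of TMM this difference was -0.16 (edgeR adjusted p = 0.677) and not called. For *Notch3* the difference was -0.48 (95% interval -1.02 to 0.07, edgeR adjusted p = 0.309) and for *Jag1* 0.11 (95% interval -0.01 to 0.24, edgeR adjusted p = 0.263). The value of *Jag1* reached 0.19 under other settings of the processing. The intervals for *Dll1* (-0.88 to 1.57) and *Hey1* (-0.5 to 0.55) were wide, and those of *Notch1* (-0.23 to 0.05) and *Hes1* (-0.28 to 0.17) were narrower. The median over the 7 genes was -0.05, against -0.03 for all tested genes.

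Exons of *Notch1*, *Notch3* and *Dll1* overlap other annotated genes on the opposite strand, and those of *Notch2* overlap *Gm42820* on the same strand (541 bases). The strand setting of the counting is not given in the sources used here. The overlapping genes themselves had few counts, 0 to 2 for *A930024N18Rik* at *Dll1* (867 bases), 0 to 2 for *Gm17276* at *Notch3* (488 bases), 5 to 25 for *0610009E02Rik* at *Notch1* and 5 to 17 for *Gm42820*.

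The wider pathway was followed in a list of 52 further genes, of which 43 were tested. Capmatinib was called for 37 of 43 in NF1-MET (21 higher and 16 lower) and for 37 of 43 in NF1-MET;sgP53 (22 higher and 15 lower), with medians of 0.13 and 0.15 on the log2 scale against 0 for all tested genes. Of all tested genes, 70.2% were called in NF1-MET (35.5% higher, 34.7% lower) and 67.6% in NF1-MET;sgP53 (34.2% higher, 33.4% lower), shares against which the counts by role should also be read. With library totals, 32 and 29 were called. Over all tested genes, that setting called 3508 higher and 6381 lower in NF1-MET, in place of 5140 and 5029. In NF1-MET;sgP53 it called 3260 higher and 4933 lower, in place of 4963 and 4841.

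**Figure D4:**
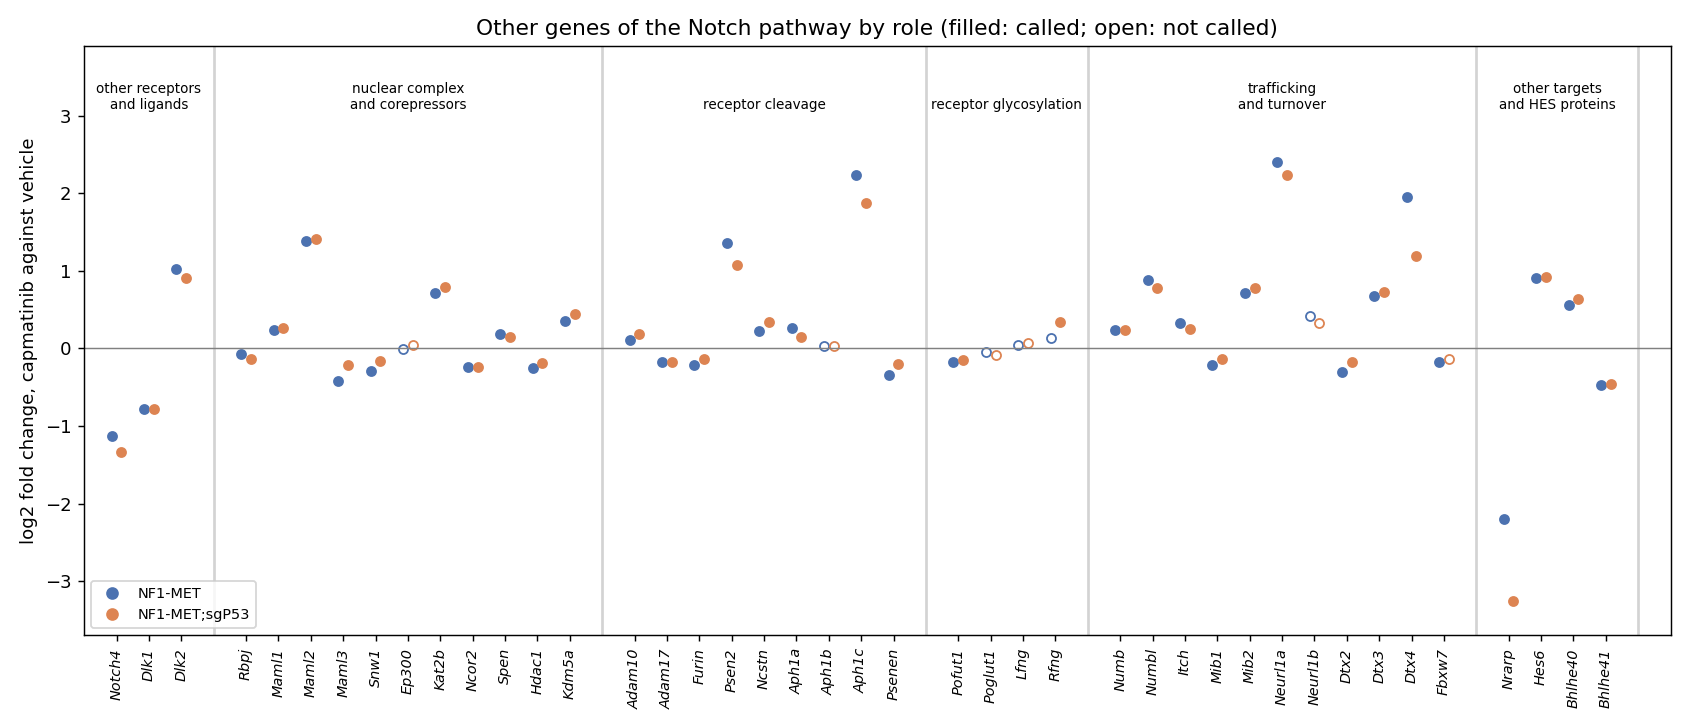
Log2 fold change with capmatinib (vertical axis) of tested genes of the wider Notch list, ordered by role, in NF1-MET (blue) and NF1-MET;sgP53 (orange), filled where called. *Neurl1a*, *Aph1c*, *Dtx4*, *Maml2* and *Psen2* lie above 1 and *Notch4* and *Nrarp* below -1 in both lines.

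Among other receptors and ligands, 3 of 5 genes were tested and called in both lines. *Notch4* was at 4.71 and 4.86 CPM in NF1-MET vehicle and at 2.02 and 2.34 CPM in NF1-MET capmatinib, and it fell by 1.13 (edgeR adjusted p = 7.5e-08) there and by 1.34 (edgeR adjusted p = 1.27e-06) in NF1-MET;sgP53. The noncanonical ligand *Dlk1* fell by 0.78 in each line, and its relative *Dlk2* rose by 1.02 and 0.91. *Dll4*, a Delta-like ligand of endothelium, had 0 to 2 counts per library and was not tested.

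In the nuclear complex, 10 of 11 tested genes were called in each line, 5 higher and 5 lower (all genes 70.2% and 67.6%), a count that by itself says little. *Rbpj*, the DNA-binding partner, was abundant (190 to 215 CPM) and fell by 0.07 (edgeR adjusted p = 0.0223) in NF1-MET and by 0.13 (edgeR adjusted p = 0.000687) in NF1-MET;sgP53. The former was not called with DESeq2's Wald test (adjusted p = 0.0898), with all 8 libraries in 1 model (edgeR adjusted p = 0.105), or without the first vehicle (edgeR adjusted p = 0.147) or second capmatinib library (edgeR adjusted p = 0.0992), whereas with library totals *Rbpj* was at -0.25 in each line and called. The Mastermind coactivators diverged. *Maml2* went from 19.1 and 20.5 CPM to 53.7 and 51.7 CPM in NF1-MET (log2 1.39, edgeR adjusted p = 1.56e-21) and rose alike in NF1-MET;sgP53 (log2 1.41, edgeR adjusted p = 5.7e-16). *Maml1* rose by 0.24 (0.16 without the second NF1-MET capmatinib library) and 0.26, a call lost in both lines with library totals (0.05 and 0.14). *Maml3* fell by 0.42 and 0.22, the latter not called without the second NF1-MET;sgP53 capmatinib library (-0.16, edgeR adjusted p = 0.0732) and at -0.35 with library totals.

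Of the 10 genes of receptor cleavage, 9 were called in each line, 6 higher and 3 lower (all genes 70.2% and 67.6%). *Psen2*, one of the catalytic presenilins of gamma-secretase, was at 3.55 and 3.91 CPM in NF1-MET vehicle and at 10.3 and 9.24 CPM in capmatinib (log2 1.36, edgeR adjusted p = 2.19e-12), and it rose by 1.07 (edgeR adjusted p = 1.2e-08) in NF1-MET;sgP53. *Aph1c*, a gene of a further gamma-secretase subunit that was named after its values were seen, had 5 and 7 counts in NF1-MET vehicle and 25 in each capmatinib library, and in NF1-MET;sgP53 3 and 5 against 15 and 13 (log2 2.23 and 1.88). As it passed the filter only through the capmatinib libraries, its calls were favoured by the filter. The proteases *Adam10* (0.11 and 0.19) and *Adam17* (-0.18 and -0.17) moved in opposite directions. With library totals *Adam10* turned to -0.07 in NF1-MET and was not called in NF1-MET;sgP53 (0.07), and *Adam17* went to -0.37 and -0.29.

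Of 4 tested genes of receptor glycosylation, 1 was called in NF1-MET (lower) and 2 in NF1-MET;sgP53 (1 higher and 1 lower), against 70.2% and 67.6% of all genes. *Pofut1*, which adds O-fucose to the receptors, fell by 0.17 (edgeR adjusted p = 0.000452) in NF1-MET and by 0.15 (edgeR adjusted p = 0.00165) in NF1-MET;sgP53, or by 0.1 there without the first vehicle library. With library totals it was at -0.35 and -0.27. The Fringe gene *Rfng* was not called in NF1-MET (log2 0.13) and rose by 0.34 in NF1-MET;sgP53 (edgeR adjusted p = 0.00146), a call lost with library totals (0.21), which also turn the value in NF1-MET to -0.06. *Lfng* was not called in either line (log2 0.05 and 0.07).

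In trafficking and turnover, 10 of 11 tested genes were called in NF1-MET (7 higher and 3 lower), and in NF1-MET;sgP53 9 were (7 higher and 2 lower), against 70.2% and 67.6% of all genes. *Neurl1a*, a ubiquitin ligase of Notch ligands, went from 0.579 and 0.602 CPM to 3.22 and 3.18 CPM in NF1-MET (log2 2.41, edgeR adjusted p = 4.98e-11) and from 0.669 and 0.515 CPM to 2.41 and 3.09 CPM in NF1-MET;sgP53 (log2 2.23, edgeR adjusted p = 8.17e-08). Of the other targets and HES proteins, 4 of 8 were tested, and all 4 were called in both lines (all genes 70.2% and 67.6%). This count includes *Nrarp*, which passed the filter only through its 4 vehicle libraries, so that its fall was favoured by the filter. *Nrarp*, a target that feeds back on Notch signalling, had 29 and 19 counts in NF1-MET vehicle and 5 and 4 in capmatinib (log2 -2.2, edgeR adjusted p = 0.000417). In NF1-MET;sgP53 it had 29 and 46 counts in vehicle and 0 and 7 in capmatinib (log2 -3.26, edgeR adjusted p = 3.39e-05). That call was lost with DESeq2's Wald test (adjusted p = 0.104), and the value ran from -8.19 to -2.31 with 1 library left out, the lowest without the second capmatinib library, which leaves a library at 0. *Hes6*, a HES protein known for opposing HES1, rose by 0.91 (edgeR adjusted p = 4.35e-10) and 0.92 (edgeR adjusted p = 2.35e-08). *Hes5* had 0 counts in every library. *Dll4*, *Dlk2*, *Maml1*, *Maml2*, *Adam17*, *Neurl1a* and *Nrarp* share between 51 and 2051 exon bases with another gene, most in *Nrarp*.

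Between the lines, 14 of the 43 tested genes were called in vehicle (4 higher and 10 lower) and 10 in capmatinib (5 higher and 5 lower), where 23.2% and 12.3% of all tested genes were called. With library totals, 6 and 3 were called, where calls over all tested genes fell from 3355 to 2023 and from 1778 to 666. *Dlk1* and *Dlk2* were lower in NF1-MET;sgP53 in both conditions, at -0.58 and -0.44 in vehicle and -0.58 and -0.56 in capmatinib on the log2 scale. *Notch4* was lower at -0.45 (edgeR adjusted p = 0.0121) and -0.65 (edgeR adjusted p = 0.0497). Its call in vehicle was lost without the second NF1-MET (edgeR adjusted p = 0.0899) or second NF1-MET;sgP53 library (edgeR adjusted p = 0.0667) and with DESeq2's Wald test (adjusted p = 0.132). The call in capmatinib was lost without any 1 of the 4 libraries (edgeR adjusted p between 0.0574 and 0.346), with DESeq2 size factors (edgeR adjusted p = 0.0505), library totals (edgeR adjusted p = 0.207) or DESeq2's Wald test (adjusted p = 0.345), without *Gm42418* (edgeR adjusted p = 0.0539) and with a replicate block (edgeR adjusted p = 0.0584). *Maml3* was lower at -0.44 and -0.23, the latter not called without the second NF1-MET (-0.13) or second NF1-MET;sgP53 capmatinib library (-0.17), with library totals (-0.11, edgeR adjusted p = 0.592) or with DESeq2's Wald test (adjusted p = 0.273). The interaction was called for 1 of 43 genes (9.71% of all tested genes), *Dtx4*, a Deltex ubiquitin ligase, with a difference of -0.78 (SE 0.0967, edgeR adjusted p = 4.13e-06). It went from 7.05 and 7.6 CPM to 28.2 and 29.3 CPM in NF1-MET and from 15.1 and 13.8 CPM to 33.3 and 32.7 CPM in NF1-MET;sgP53. *Dlk1*, *Dlk2* and *Dtx4* were chosen after their values were seen.

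For the 3 genes with the widest range of group means, the genes of most similar pattern were looked up among 11777 genes, by the distance between the centred log2(CPM + 1) means of the 4 groups. Nearest to *Notch3* (range 2.63) were *Nid2* (distance 0.132) and *C1ra* (0.154). Nearest to *Dll1* (range 1.82) were *Tpgs2* (0.0515) and *Slc35d1* (0.0732). Nearest to *Hey1* (range 1.27) were *Prkar1b* (0.216) and *Serpine2* (0.239). The added 1 CPM compresses the range of genes at low levels. The group means of *Dll1* ran from 0.195 to 3.21 CPM, a ratio of 16.5, so its neighbours may depend on that addition. With 4 group means behind each distance, these are descriptions of likeness in these libraries.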

How the data were processed

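The authors prepared poly(A) libraries from cells treated in duplicate, sequenced them from both ends, and trimmed and mapped the reads to mm10. The submitters' processing notes name Trim Galore 0.4.2, FastQC 0.11.7 and STAR 2.5.2b. The deposited values are raw STAR counts per gene, neither normalized nor filtered, and all columns belonged to the 8 libraries. Groups were taken from the sample labels. The labels call the duplicates biological replicates, and the methods describe wells of a plate, so p-values measure only the spread between these samples, which may be technical. Replicates differed by more than sampling noise (median ratio 1.54 to 1.86).

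The filter left 14497 of 50600 genes, those with 10 or more counts in 2 or more libraries (the others held 0.0396% of counts), and a gene also needed counts in 2 libraries of the comparison. Each comparison was fitted on all tested genes of its own libraries with edgeR 4.0.16 in R 4.3.3 (TMM factors, the original quasi-likelihood F-test, Benjamini-Hochberg adjustment over all genes tested, threshold 0.05). The biological coefficient of variation was 2.34% to 4.28%. Standard errors were derived from the F statistic. Positions and exon lengths came from GENCODE M21 (99.56% of identifiers found) and promoters from RefSeq. Counting intervals and limits cover counting error only. The procedure was also run on simulated counts in which a small part of the genes changed. Such a run cannot check the scaling where most genes are called, as with capmatinib.

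Named were the 10 genes, *Trp53*, from the wider list *Rbpj*, *Maml1* to *Maml3*, *Adam10*, *Adam17*, *Psen2*, *Notch4*, *Dll4*, *Nrarp* and *Lfng*, and in each role the gene with the largest capmatinib change in each line where the higher group reached 1 CPM. *Aph1c*, *Dlk1*, *Dlk2* and *Dtx4* were added after their values were seen. Some genes of the lists are not reported here. The genes and lists were chosen with earlier results of these data known. Alternatives were DESeq2 (1.42.0) size factors and Wald test, library totals, edgeR's bias-adjusted test, no filter, a stricter filter (under 2 libraries below 10 counts, 12802 genes), a block for replicate number, a single model of the 8 libraries, omission of *Gm42418* and of each library in turn.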

Additional observations from a re-analysis of the deposited data

Results flagged for a closer look

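The capmatinib response differed between the lines, by the test of the interaction of line and treatment (the quasi-likelihood test of edgeR, p-values adjusted after Benjamini and Hochberg), for 2 of the named genes. For *Notch2* the log2 response was smaller in NF1-MET;sgP53 by a difference of -0.24 (adjusted p = 0.000723; with library totals in place of TMM -0.16, adjusted p = 0.677, not called), with all libraries of both lines higher under capmatinib than in vehicle. For *Dtx4* the difference was -0.78 (adjusted p = 4.13e-06), again with a rise in every capmatinib library. With 2 libraries in a group, single libraries were not tested for standing apart.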

How the results depend on the processing

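With 2 libraries per group, low genes such as *Dll1* and *Nrarp* are limited by counts, and *Jag2*, *Hey2* and *Heyl* by depth. Of 1149 recomputed values of single genes, 1087 kept their direction and their side of the threshold, 39 lost and 2 gained a call, and 21 changed sign. The cause was not tested. Of the values that changed sign, that of *Adam10* had been called. With library totals the median of all genes moved to -0.18 for capmatinib in NF1-MET, to -0.12 for NF1-MET;sgP53 and to 0.11 between the lines in capmatinib, and higher genes made up 35.5%, 39.8% and 80.6% of calls in place of 50.5%, 50.6% and 48.4% (between the lines in vehicle 63.3% in place of 47.1%). Leaving out *Gm42418* or the filter moved this share for the interaction from 39.7% to 58.8% and 53.6%, and library totals to 61%; with all 8 libraries in 1 model it was 57.3% between the lines in vehicle.

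With library totals the interaction was called for 0 of the 7 Notch genes in place of 1. The signs that turned were those of *Adam10* (-0.07), *Lfng* (-0.13) and *Rfng* (-0.06) for capmatinib in NF1-MET, *Lfng* (-0.05) for capmatinib in NF1-MET;sgP53, *Hes1* between the lines in vehicle (0.03), *Notch1* (0.1), *Notch2* (0.03) and *Hes1* (0.05) between the lines in capmatinib, and *Hes1* (0.03) in the interaction. With 1 library left out, values ran from -0.01 to 0.12 for *Lfng* in NF1-MET, -0.11 to 0.05 for *Hes1* between the lines in vehicle, -0.09 to 0.07 for *Notch1* and -0.14 to 0.03 for *Hes1* in capmatinib, and in the interaction from -0.28 to 0.34 for *Hey1*, -0.01 to 0.07 for *Trp53*, -0.16 to 0 for *Notch1* and -0.14 to 0.04 for *Hes1*. The calls of *Notch2* between the lines in capmatinib appeared without the filter (-0.09) and without the first NF1-MET;sgP53 capmatinib library (-0.13). Between the lines, *Hey1* in vehicle ran from -1.51 to -0.88 and *Notch2* in the interaction from -0.28 to -0.16, the smaller sizes without the second NF1-MET;sgP53 vehicle and capmatinib library, respectively, and stayed called.

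Calls over all genes fell from 3355 to 2023 (library totals) and 1940 (DESeq2's Wald test) between the lines in vehicle, from 1778 to 666 and 870 in capmatinib, and from 1407 to 315 and 894 for the interaction. In the wider list they fell from 14 to 9 and from 10 to 4 with DESeq2's Wald test and rose from 1 to 3 for the interaction without *Gm42418*. With 1 library left out they ran down to 7 between the lines in vehicle (without the second NF1-MET library) and 5 in capmatinib (likewise), and up to 3 for the interaction (without the second NF1-MET;sgP53 capmatinib library). Under the stricter filter *Dll1* was not tested, which leaves 6 of the Notch genes. With the replicate number as a block, 7, 7, 5, 3 and 1 of the Notch genes were called in the 5 comparisons, as without it. Over all genes, the block raised the calls between the lines in vehicle from 1580 higher and 1775 lower to 1905 and 2089. For the interaction it raised them from 558 higher and 849 lower to 619 and 905. The deviations of same-numbered samples from their group means correlated at r of -0.08 to 0.24 over the 6 pairs of groups, above 0.1 in 3 of them, and the labels name no shared batch, so the numbers were not taken to pair the samples. Of the named genes' calls the block ended that of *Notch4* between the lines in capmatinib (-0.64).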
